A study of Mus musculus with 12 samples.

Results

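The genes described are 9 mouse genes that write, copy, remove or read DNA methylation, namely Dnmt1, Dnmt3a, Dnmt3b, Dnmt3l, Tet1, Tet2, Tet3, Uhrf1 and Mbd2. They were chosen by symbol out of the 47642 Ensembl genes listed, with earlier results of these data known, and all 9 were found. Their RNA was measured in mIMCD3 cells, an epithelial line from the inner medullary collecting duct of mice that carry a transgene with the early region of the SV40 virus, which keeps the cells dividing. There were 12 libraries, 4 of wild-type cells (WT), 4 of 1 Pkd1-/- clone, in which CRISPR editing deleted most of Pkd1 on both alleles, and 4 of 1 Pkd2-/- clone, in which TALEN editing deleted an internal stretch of Pkd2. RNA was taken from untreated dishes 4 days after the layer had closed, and the 4 dishes per genotype were those with the purest RNA of 6 grown. The comparisons ask how loss of polycystin-1 or polycystin-2, the proteins lost in autosomal dominant polycystic kidney disease, goes with transcription in tubular cells. Because the dishes of a mutant come from 1 clone, p-values measure the spread between dishes only, and a difference between clones cannot be told apart from an effect of the deleted gene.

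DNA methylation in mammals is placed on the cytosine of CpG dinucleotides. DNMT3A and DNMT3B set new marks, with DNMT3L as a catalytically inactive partner in germ cells, while UHRF1 binds half-methylated DNA behind the replication fork and brings DNMT1 there to copy the mark. TET enzymes oxidise methylcytosine, which opens the way to its removal, and MBD2 binds methylated CpGs and brings the NuRD chromatin remodelling complex to them. In renal epithelium, as in other somatic tissue, methylation keeps germline genes silent.

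The values are normalized counts, that is reads per gene divided by a size factor of the library and rounded. Totals ran from 25966273 to 28027792 normalized counts per library, and the reads behind them were estimated at 23190000 to 30320000. A count of 0 allows up to 2.66 to 3.38 normalized counts, counting error only. The targeted gene Pkd1 had 782 ± 112 normalized counts in WT and 41.8 ± 8.81 in Pkd1-/- cells (SD, n = 4). Pkd2 had means of 3971 in WT and 3986 in Pkd2-/- cells, and since exons outside the deletion are still counted, this does not check the Pkd2-/- label. Of the line's epithelial markers, Cdh1 (E-cadherin) had means of 13696, 13965 and 15573 normalized counts in WT, Pkd1-/- and Pkd2-/- cells, and Pax8, a renal epithelial transcription factor, 4204, 3937 and 5986. Of the 15 tested markers of this list, 2 were higher and 4 lower in Pkd1-/- cells, and 8 higher and 4 lower in Pkd2-/- cells. Keratin 19 (Krt19) was lower in both mutants (log2 -1.75 and -1.66), Gata3, a transcription factor of the collecting duct, was lower in Pkd1-/- (-2.20) and higher in Pkd2-/- cells (0.64), and Scnn1a, a subunit of the epithelial sodium channel, was higher in Pkd2-/- cells (0.66). Aqp2, the water channel that defines principal cells of the collecting duct, was at 0 in all 12 libraries. Summed endothelial markers reached at most 10 normalized counts and those of germ and pluripotent cells at most 13. Fibroblast markers summed to 25 to 55 in WT, 23 to 37 in Pkd1-/- and 15 to 99 in Pkd2-/- libraries, the 99 being in Pkd2-/- library 3. In bulk RNA, fewer cells with a transcript and less transcript per cell cannot be told apart.

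The start regions of 4 members are printed because the largest and the most opposed differences below are theirs. They are the bases just before a RefSeq transcript start (GRCm38.p6), 5′ to 3′ on the gene's strand, and capitals mark a match to an E2F-type motif, E2F being the factor family that drives S phase genes. The motif was searched as TTTCCCGC, TTTGGCGC, TTTCGCGC and TTTGCCGC on both strands. The Uhrf1 stretch is chr17:56304063-56304312 (plus strand), the Dnmt1 stretch chr9:20952824-20952853 (minus strand, the 30 bases around the match), the Dnmt3b stretch chr2:153649199-153649448 (plus strand) and the Tet1 stretch chr10:62887325-62887412 (minus strand, the bases free of annotated exons).
Uhrf1: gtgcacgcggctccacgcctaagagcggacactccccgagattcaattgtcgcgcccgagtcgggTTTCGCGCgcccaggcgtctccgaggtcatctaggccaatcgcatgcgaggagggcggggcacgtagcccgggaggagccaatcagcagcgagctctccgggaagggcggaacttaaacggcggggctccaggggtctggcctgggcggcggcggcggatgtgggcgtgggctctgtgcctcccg
Dnmt1: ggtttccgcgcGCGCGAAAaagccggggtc
Dnmt3b: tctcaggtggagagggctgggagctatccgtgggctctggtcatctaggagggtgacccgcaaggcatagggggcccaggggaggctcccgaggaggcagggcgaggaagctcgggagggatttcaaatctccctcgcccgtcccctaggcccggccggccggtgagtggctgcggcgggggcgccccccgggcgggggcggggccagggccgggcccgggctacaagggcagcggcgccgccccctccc
Tet1: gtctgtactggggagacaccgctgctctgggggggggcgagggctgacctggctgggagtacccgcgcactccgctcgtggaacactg

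Of the 8 members with an entry in the RefSeq promoter table, Uhrf1 and Dnmt1 held the motif within 250 bases before a start, at 185 and 219 bases before it. The Dnmt1 match reads GCGCGAAA, the reverse complement of TTTCGCGC. The motif occurred in 1.86% of all 32851 windows of that length. Counted per gene over any of its windows, it occurred in 2.16% of 27025 genes and in 5 of 19 genes of the S phase list described below. The printed Uhrf1 and Dnmt3b windows held 30 and 21 CpGs, against a median of 6 over all windows. A match is a description of letters, and binding or methylation at these sites was not measured here.

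In WT cells, compared per kb of annotated exon, the copying machinery was the most abundant. Uhrf1 had 2062 ± 84.6 normalized counts per kb (SD, n = 4), Dnmt1 874 ± 37.6 and Mbd2 740 ± 33.4. Tet3 followed with 231 ± 28.4, Dnmt3a with 149 ± 11.3, Tet2 with 51.1 ± 4.66, Dnmt3b with 28.7 ± 3.77 and Tet1 with 3.17 ± 0.53. No 2 neighbours in this order overlapped between their WT libraries. The order by mean was the same in both mutants, where the only neighbours to overlap were Tet2 (40.4 to 63.2 per kb) and Dnmt3b (34.3 to 43.1 per kb) in Pkd1-/- cells. Dnmt3l was listed with 1 normalized count in 1 WT and 1 Pkd2-/- library and with 0 in the other 10, at or under the detection limit, and was not tested.

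**Figure D1:**
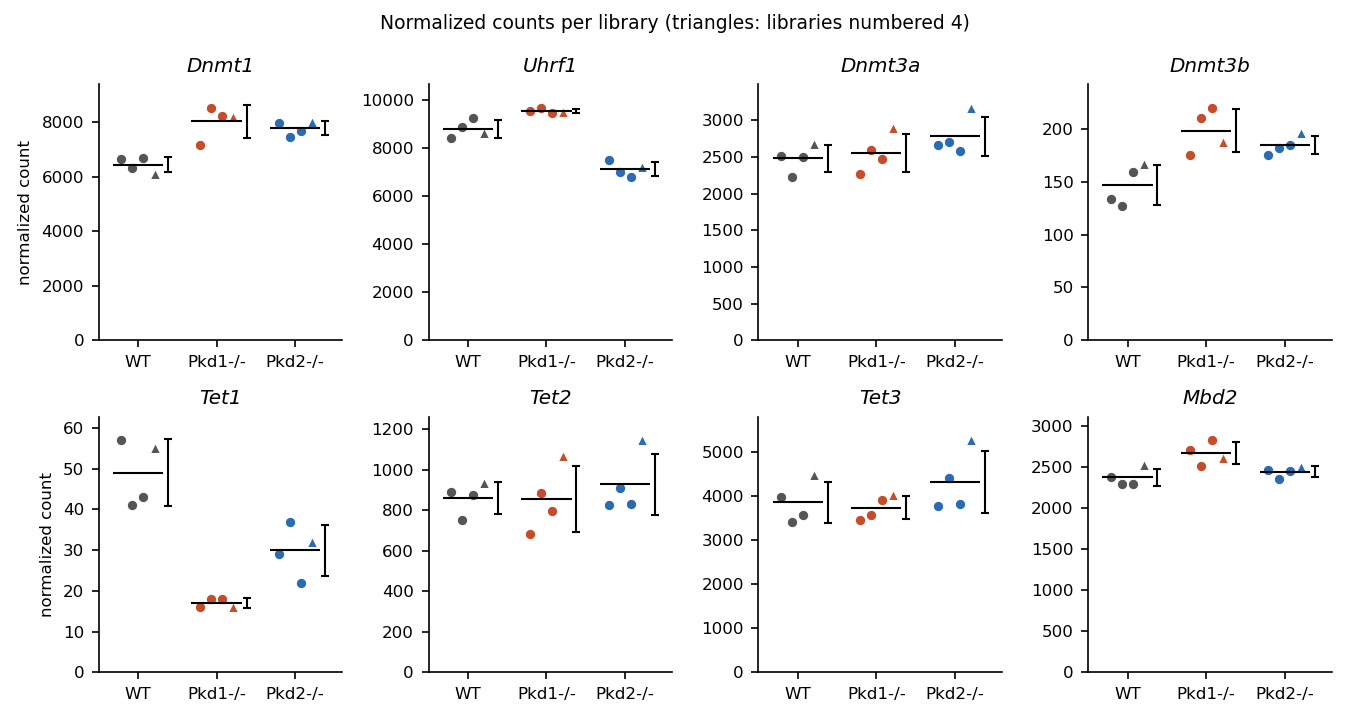
Normalized counts (y axis, from 0) of the 8 tested members in each library, by genotype (x axis). Points are libraries in the order of their numbers, triangles the libraries numbered 4, horizontal lines the means and bars the SD (n = 4). Tet1 separates all 3 genotypes, Dnmt1 and Dnmt3b separate WT from both mutants, and Uhrf1 is lowest in Pkd2-/- cells.

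Loss of Pkd1 went with higher Dnmt1, Dnmt3b, Mbd2 and Uhrf1 and lower Tet1, and loss of Pkd2 with higher Dnmt1 and Dnmt3b and lower Tet1 and Uhrf1. These were 5 of the 8 tested members in Pkd1-/- cells at an adjusted p under 0.05, where 27.1% of all 18552 tested genes passed, and 4 of 8 in Pkd2-/- cells, where 42.3% passed. By direction, 13.6% of all tested genes were higher and 13.5% lower in Pkd1-/- cells, and 20% were higher and 22.3% lower in Pkd2-/- cells. Well expressed genes passed more often. Of the 10649 genes that averaged 100 or more normalized counts, 37% and 59.3% passed, and 4 and 3 of the 7 members at that level, all but Tet1. A change of 1 or more on the log2 scale besides was reached by 1 member, Tet1 in Pkd1-/- cells (6.24% of all tested genes), and by 0 in Pkd2-/- cells (9.62% of all tested genes), where 4 members passed the adjusted p alone. Libraries did not overlap with WT for 4 members in each mutant, Dnmt1, Dnmt3b, Tet1 and Uhrf1, as for 27.1% of all tested genes in Pkd1-/- and 37.2% in Pkd2-/- cells. Nothing particular to the members as a group was tested. All tests were limma on log2(normalized count + 1) with Benjamini-Hochberg adjustment over all tested genes, two-sided. Both mutant comparisons share the WT libraries.

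**Figure D2:**
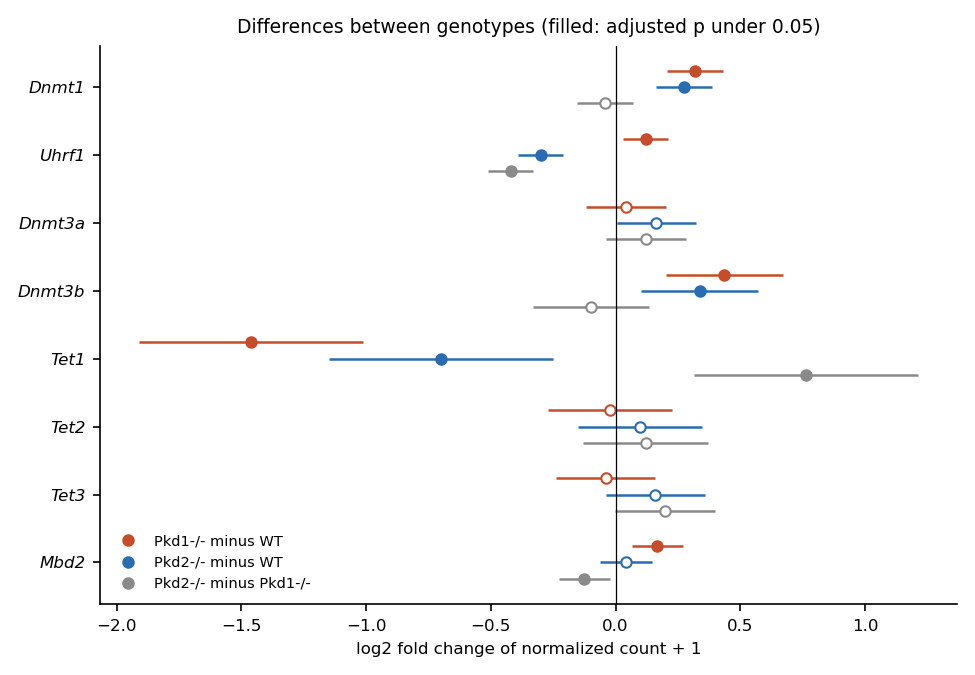
Log2 fold change of each tested member (x axis) with its 95% confidence interval, for Pkd1-/- minus WT, Pkd2-/- minus WT and Pkd2-/- minus Pkd1-/-. Filled points passed an adjusted p of 0.05. Tet1 lies farthest from 0, at -1.46 and -0.70 in the mutants, and Uhrf1 lies on opposite sides of 0, at 0.12 and -0.30.

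Dnmt1, the maintenance methyltransferase (chr9:20907209-20959888, GRCm38), had 6670, 6314, 6685 and 6121 normalized counts in the WT libraries, 7172, 8542, 8256 and 8203 in Pkd1-/- and 7999, 7466, 7704 and 8022 in Pkd2-/-. Every mutant library lay above every WT library, while the mutants overlapped each other. Dnmt1 was 1.25-fold higher in Pkd1-/- cells (log2 0.32, 95% interval 0.20 to 0.43, limma adjusted p = 0.000152). It was 1.21-fold higher in Pkd2-/- cells (log2 0.27, interval 0.16 to 0.39, limma adjusted p = 0.000335). The mutants differed from each other by -0.04 on the log2 scale (Pkd2-/- minus Pkd1-/-, interval -0.15 to 0.07, limma adjusted p = 0.561). A difference within that interval remains possible. For the separation from WT, an exact permutation test of 4 against 4 libraries gave p = 0.0286 in both comparisons, the smallest it can give.

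Uhrf1, which guides DNMT1 to replicated DNA (chr17:56303321-56323486), had 8408, 8851, 9251 and 8624 normalized counts in WT, 9529, 9667, 9460 and 9501 in Pkd1-/- and 7502, 7010, 6807 and 7200 in Pkd2-/- libraries. The 3 genotypes did not overlap, with Pkd1-/- the highest and Pkd2-/- the lowest. In Pkd2-/- cells it was 1.23-fold lower than in WT (log2 -0.30, interval -0.39 to -0.21, limma adjusted p = 1.41e-05). In Pkd1-/- cells the difference was 1.09-fold (log2 0.12, interval 0.03 to 0.21) and close to the threshold (limma adjusted p = 0.0473), and it did not pass under 4 of 10 alternative settings or when 7 of the 8 libraries were left out in turn. The mutants differed from each other by -0.42 on the log2 scale (limma adjusted p = 1.68e-07).

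Dnmt1 and Uhrf1 act in the same step, and in Pkd2-/- cells their RNA moved in opposite directions. The ratio of Dnmt1 to Uhrf1 normalized counts was 0.735 ± 0.0394 in WT (0.710 to 0.793 across libraries), 0.843 ± 0.0609 in Pkd1-/- (0.753 to 0.884) and 1.09 ± 0.0339 in Pkd2-/- cells (1.07 to 1.13; SD, n = 4). The Pkd2-/- ratios lay above those of all other libraries, whereas WT and Pkd1-/- ratios overlapped. This ratio was formed after the values of both genes were seen and is given as a description.

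Dnmt3a, the more abundant de novo methyltransferase (chr12:3806007-3914443), had 2520, 2223, 2503 and 2677 normalized counts in WT, 2274, 2590, 2469 and 2894 in Pkd1-/- and 2665, 2707, 2584 and 3172 in Pkd2-/- libraries. The genotypes overlapped. The log2 differences from WT were 0.04 in Pkd1-/- cells (interval -0.12 to 0.20, limma adjusted p = 0.755) and 0.16 in Pkd2-/- cells (interval 0.00 to 0.32, limma adjusted p = 0.0948), neither past the threshold. The Pkd2-/- value became -0.06 when each library's trend over gene length was removed.

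Dnmt3b (chr2:153649450-153687730) had 134, 127, 159 and 167 normalized counts in WT, 175, 210, 220 and 188 in Pkd1-/- and 175, 182, 185 and 196 in Pkd2-/- libraries. All 8 mutant libraries lay above the WT range, the closest pair being 167 and 175. The gene was 1.35-fold higher in Pkd1-/- cells (log2 0.43, interval 0.20 to 0.67, limma adjusted p = 0.00619) and 1.26-fold higher in Pkd2-/- cells (log2 0.34, interval 0.10 to 0.57, limma adjusted p = 0.0204). The Pkd2-/- call did not pass without WT replicate 1, WT replicate 2 or Pkd2-/- replicate 4. Dnmt3b RNA per kb was 19.2% ± 1.57 of that of Dnmt3a in WT, 25.4% ± 3.28 in Pkd1-/- and 21.7% ± 1.32 in Pkd2-/- cells (SD, n = 4). The mutants differed by -0.10 on the log2 scale (interval -0.33 to 0.14, limma adjusted p = 0.512).

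The genes around Dnmt3b were higher in Pkd2-/- cells as well. Of the 50 nearest genes that averaged 10 or more normalized counts, spanning 3.90 Mb, 31 were higher and 4 lower than in WT at an adjusted p under 0.05, with a median log2 difference of 0.28. Over all tested genes, which averaged 1 or more, 20% were higher and 22.3% lower, with a median of -0.01. Better expressed genes passed more often. With the test limited to the 13703 genes averaging 10 or more, 7454 passed in Pkd2-/- and 4854 in Pkd1-/- cells, in either direction. In Pkd1-/- cells the same neighbours had a median of 0.12, with 15 higher and 1 lower, against 13.6% and 13.5% over all tested genes. The Dnmt3b differences of 0.43 and 0.34 thus exceeded these medians by more in Pkd1-/- than in Pkd2-/- cells, and the part of the neighbourhood in them was not tested. Around Dnmt1, the median of the neighbours was 0.01 in Pkd1-/- and -0.11 in Pkd2-/- cells.

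**Figure D3:**
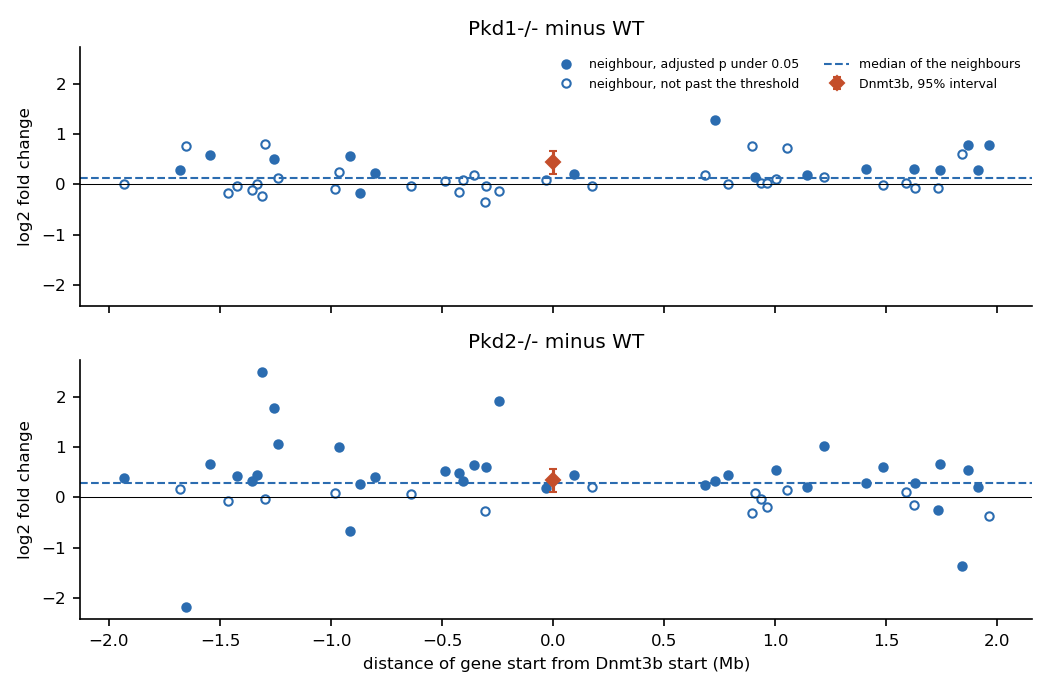
Log2 fold change against WT (y axis) of the 50 genes nearest to Dnmt3b by distance of their start in Mb (x axis), in Pkd1-/- (top) and Pkd2-/- cells (bottom). Circles are neighbours, filled where the adjusted p was under 0.05, the dashed line is their median (0.12 and 0.28) and the diamond is Dnmt3b with its 95% interval.

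Tet1, a methylcytosine dioxygenase best known from embryonic stem and germ cells (chr10:62804570-62908996), had the largest differences among the members. It had 57, 41, 43 and 55 normalized counts in WT, 16, 18, 18 and 16 in Pkd1-/- and 29, 37, 22 and 32 in Pkd2-/- libraries. No library of one genotype reached into another, with WT highest, Pkd2-/- intermediate and Pkd1-/- lowest. Tet1 was 2.75-fold lower in Pkd1-/- cells (log2 -1.46, standard error 0.21, interval -1.91 to -1.01, limma adjusted p = 3.40e-05). It was 1.62-fold lower in Pkd2-/- cells (log2 -0.70, interval -1.15 to -0.25, limma adjusted p = 0.0126), and this call did not pass without Pkd2-/- replicate 3 (log2 -0.56, limma adjusted p = 0.0501) or with the 3 libraries numbered 4 left out (log2 -0.68, limma adjusted p = 0.0554). Between the mutants Tet1 was higher in Pkd2-/- cells by 0.76 on the log2 scale (limma adjusted p = 0.00634). These are low counts, and adding 1 before the logarithm understates such changes.

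Tet2 (chr3:133463679-133545139) had 889, 751, 876 and 935 normalized counts in WT, 681, 886, 798 and 1067 in Pkd1-/- and 824, 912, 833 and 1147 in Pkd2-/- libraries. Tet3 (chr6:83362373-83459084) had 3987, 3414, 3577 and 4475 in WT, 3460, 3588, 3909 and 4021 in Pkd1-/- and 3790, 4419, 3828 and 5281 in Pkd2-/- libraries. For both paralogs all genotypes overlapped. Tet2 differed from WT by -0.02 (interval -0.27 to 0.23, limma adjusted p = 0.924) and 0.10 (interval -0.15 to 0.35, limma adjusted p = 0.556) on the log2 scale in Pkd1-/- and Pkd2-/- cells. Tet3 differed by -0.04 (interval -0.24 to 0.16, limma adjusted p = 0.815) and 0.16 (interval -0.04 to 0.36, limma adjusted p = 0.198).

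Summed over the TET enzymes, RNA per kb was 285.7 ± 32.8 normalized counts in WT, 276 ± 23.8 in Pkd1-/- and 316 ± 50.8 in Pkd2-/- cells (SD, n = 4), with overlapping libraries. Tet3 made up 80.9%, 81.3% and 82.0% of this sum, and Tet1 1.11% ± 0.0978, 0.40% ± 0.042 and 0.616% ± 0.113. The Tet1 share did not overlap between the genotypes.

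Of 11398 genes averaging 50 or more normalized counts, the 3 whose log2 values followed Tet1 most closely across the 12 libraries were Gm37305 (Pearson's r = 0.983), Tmem33 (r = 0.972) and Cd164 (r = 0.972). The points are libraries of 3 genotypes, so these values mostly describe a shared order of WT, Pkd2-/- and Pkd1-/- means. Among markers of other cell types, Csf1r, a macrophage receptor, had the same order, with means of 881, 734 and 479 normalized counts. Cd68 of the same list, a lysosomal protein abundant in macrophages, had 47 to 69 normalized counts in every library and was not called (means of 61.8, 57.5 and 57). Ptprc, the common leukocyte antigen, had at most 5, near the detection limit. It had the same order, with means of 3, 2 and 0.25, and was called lower in Pkd1-/- cells. The other 3 of the 6 leukocyte markers, Adgre1, Itgam and Cd3e, were at 0 in all libraries, and the list summed to 893 to 1000 in WT, 428 to 652 in Pkd1-/- and 732 to 826 in Pkd2-/- libraries. Lrp2, a proximal tubule receptor, was also lowest in Pkd1-/- cells, with means of 508, 46.3 and 934.5 in WT, Pkd1-/- and Pkd2-/- cells, whereas Cubn of the same list had 2 to 6, 8 and 2 to 5 normalized counts and was not called. Of the 5 proximal tubule markers, 2 were at 0 throughout, and the list summed to 480 to 557 in WT, 33 to 71 in Pkd1-/- and 744 to 1222 in Pkd2-/- libraries. The part of these cell type markers in the Tet1 result was not tested.

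Mbd2, the reader of methylated CpGs (chr18:70568189-70626131), had 2384, 2299, 2304 and 2529 normalized counts in WT, 2717, 2519, 2835 and 2616 in Pkd1-/- and 2463, 2357, 2462 and 2511 in Pkd2-/- libraries. The lowest Pkd1-/- library, 2519, lay just under the highest WT library, 2529, and just above the highest Pkd2-/- library, 2511. Mbd2 was 1.12-fold higher in Pkd1-/- than in WT cells (log2 0.17, interval 0.06 to 0.27, limma adjusted p = 0.0155). This call did not pass without WT replicate 3 (limma adjusted p = 0.0504) or Pkd1-/- replicate 3 (limma adjusted p = 0.0668). In Pkd2-/- cells the difference from WT was 0.04 (interval -0.06 to 0.15, limma adjusted p = 0.539).

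Compared directly, the mutants differed in Tet1, Uhrf1 and Mbd2, 3 of the 8 tested members, where 46.3% of all tested genes passed (21.9% higher and 24.3% lower in Pkd2-/- cells), and 63.2% of those averaging 100 or more normalized counts. The same 3 members were those whose mutant libraries did not overlap, as for 41.8% of all tested genes. Mbd2 was lower in Pkd2-/- by 0.12 (limma adjusted p = 0.0446), a call that 6 of the 8 left-out libraries ended. With a change of 1 or more on the log2 scale required as well, 0 members passed (11.8% of all tested genes).

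The libraries of a genotype varied together in the 3 members with the longest exon sequence, Dnmt3a, Tet2 and Tet3 (16642 to 16870 exon bases). In each genotype, library 4 held the highest value of all 3 genes. The library 4 deviations from the genotype mean were also those most positively ranked with exon length in each genotype, with Spearman's rho across 11398 genes, which are not independent replicates, of 0.39 in WT, 0.35 in Pkd1-/- and 0.53 in Pkd2-/- cells. WT library 2 and Pkd1-/- library 1, at -0.44 each, held the lowest Dnmt3a, Tet2 and Tet3 of their genotype. In Pkd2-/- cells library 3, at -0.46, held the lowest Dnmt3a, and library 1, at -0.34, the lowest Tet2 and Tet3. For Dnmt1, Uhrf1 and Mbd2, with 7377, 4259 and 3214 exon bases, library 4 was not the highest in every genotype. Tet1 is nearly as long as the first 3 genes, with 15457 exon bases, but has low counts. Its library 4 was the highest in no genotype (55 against 57 in WT, 16 against 18 in Pkd1-/- and 32 against 37 in Pkd2-/- cells). The lowest Tet1 values were in library 2 of WT, libraries 1 and 4 of Pkd1-/- and library 3 of Pkd2-/- cells. In 1 alternative, each library's trend over exon length was removed, taken from its deviations from the mean of all 12 libraries. Such a trend can also hold length differences between genotypes, unlike the deviations within genotypes described here. After this removal, the calls for Dnmt1, Dnmt3b, Tet1 and Uhrf1 against WT stayed in place. The part of the length trend within genotypes in the differences between them was not tested.

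**Figure D4:**
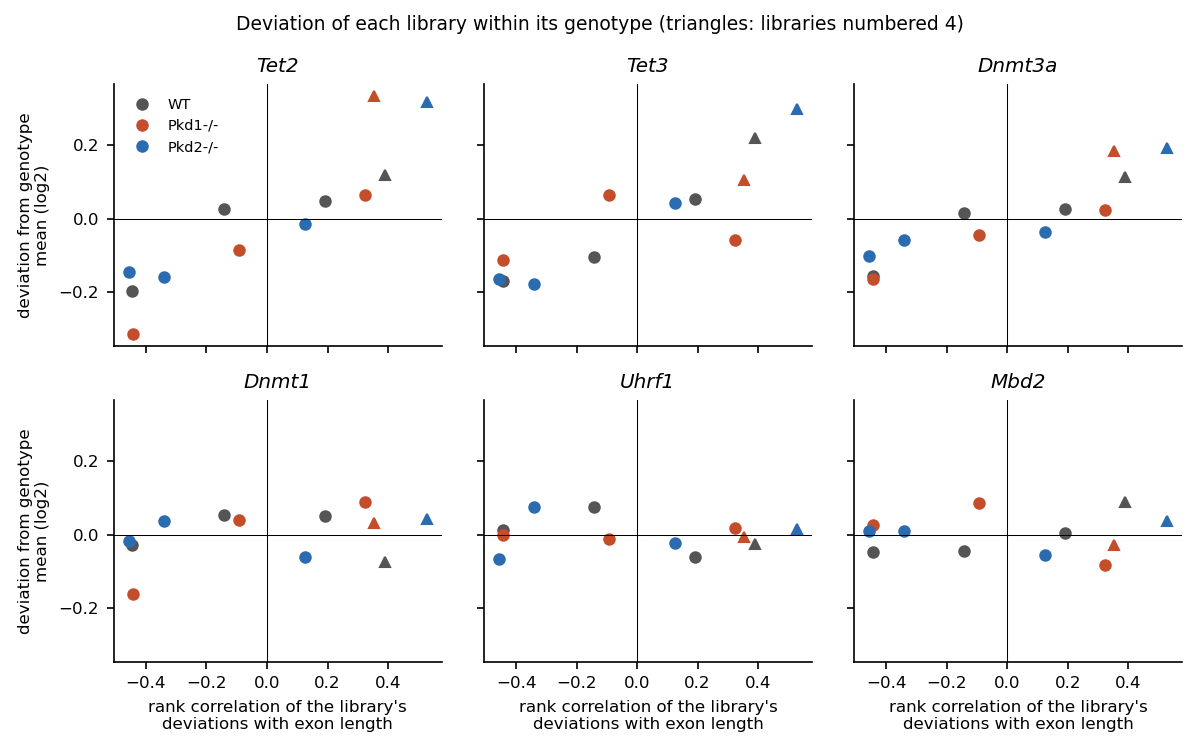
Deviation of each library from its genotype mean (y axis, log2) for 6 members, against Spearman's rho of that library's deviations with exon length over 11398 genes (x axis). Points are libraries coloured by genotype and triangles those numbered 4. Tet2, Tet3 and Dnmt3a rise from left to right, while Dnmt1, Uhrf1 and Mbd2 scatter around 0. Tet1, also long, is not drawn.

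The wider machinery was described from lists of genes grouped by role or family, each set against the shares given above. Their counts moved with the processing settings. Of 14 tested partners of DNA methylation, 5 were higher and 0 lower in Pkd1-/- cells (median log2 0.13, against 0.01 over all tested genes), and 6 were higher and 4 lower in Pkd2-/- cells (median 0.10, against -0.01). Hells, a remodeller needed for methylation of heterochromatin, was higher in both (log2 0.34 and 0.29, limma adjusted p = 0.00012 and 0.000251). Its activator Cdca7 was higher in Pkd2-/- cells (0.54, limma adjusted p = 1.07e-07), with 0.12 in Pkd1-/- cells (limma adjusted p = 0.122). Usp7, the deubiquitinase that binds DNMT1 and UHRF1, was higher in both (0.19 and 0.25), as were the histone methyltransferase Ehmt1 (0.19 and 0.42) and the sliding clamp Pcna (0.15 and 0.14). The 4 partners lower in Pkd2-/- cells were Ehmt2 and Cxxc1 (-0.17 each) and Trim28 and Kdm1a (-0.13 each). The Uhrf1 paralog Uhrf2 differed by -0.05 and -0.07, neither past the threshold.

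Of 11 other genes from families that hold readers of methylated DNA, 1 was higher and 1 lower in Pkd1-/- cells. In Pkd2-/- cells 5 were higher and 1 lower (medians 0.06 and 0.02 in Pkd1-/- and Pkd2-/- cells). Mbd3, Mbd5 and Mbd6 were listed as MBD family members and not as established readers. The counts include Mbd3 in Pkd1-/- cells, and Mbd5 and Mbd6 (0.15) in Pkd2-/- cells. Mbd3, the NuRD subunit related to Mbd2, was higher in Pkd1-/- cells (0.26, limma adjusted p = 0.000175), as Mbd2 was, and was at -0.09 in Pkd2-/- cells (limma adjusted p = 0.103). The lower gene of this list in Pkd1-/- cells was Zbtb33 (Kaiso, -0.18). In Pkd2-/- cells Mbd5 (0.53) was higher and Zfp57, which guards imprinted methylation, was lower (-0.66), while Mbd4 passed in neither.

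Of the 12 NuRD complex genes, 8 were higher and 0 lower in Pkd1-/- cells (median 0.19), among them Mta3 (0.32), Mta1 (0.28) and Chd3 (0.19). In Pkd2-/- cells 2 were higher and 2 lower (median 0.00), the lower ones being Chd3 (-0.44) and Hdac2 (-0.43). Between the mutants, 7 of the 12 were lower and 2 higher in Pkd2-/- than in Pkd1-/- cells, the direction of the Mbd2 difference. Mbd3 was counted with the reader families and not in this list.

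Of 16 tested genes listed around the removal of oxidised or deaminated bases, 4 were higher and 5 lower in Pkd1-/- cells. In Pkd2-/- cells 2 were higher and 6 lower (medians -0.06 and -0.13 in Pkd1-/- and Pkd2-/- cells). The list also holds genes that do not remove bases, such as Cxxc4, Cxxc5 and Ogt, so its counts are not of base removal alone. Cxxc4 was among the higher genes in Pkd1-/- cells. Cxxc5 was lower in both mutants (-0.53 and -0.22), and Ogt was lower in Pkd2-/- cells (-0.79). Tdg, the glycosylase that excises the products of TET enzymes, differed by 0.18 (limma adjusted p = 0.0576) and 0.15 (limma adjusted p = 0.0855). Neil2, another glycosylase of base excision repair, had 36, 28, 35 and 34 normalized counts in WT, at most 1 in Pkd1-/- and at most 3 in Pkd2-/- libraries. The groups did not overlap, and the mutant values were at or near the detection limit. Cxxc4, whose protein binds unmethylated CpGs and is known to lower TET2 protein, had 17 to 40 normalized counts in Pkd1-/-, 0 to 4 in WT and 0 in all Pkd2-/- libraries. Gadd45a, a stress gene linked to demethylation, went opposite ways, with -0.51 in Pkd1-/- and 0.92 in Pkd2-/- cells (limma adjusted p = 1.92e-05 and 4.51e-09).

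Among the genes that supply the methyl donor, 7 of 16 tested were higher and 2 lower in Pkd1-/- cells, and 4 were higher and 3 lower in Pkd2-/- cells (medians 0.13 and 0.00). Ahcy, which clears the product that inhibits methyltransferases, was higher in both (0.31 and 0.28), and methionine synthase Mtr was higher in Pkd1-/- cells (0.44). Mat2a, which makes S-adenosylmethionine, passed in neither. Of the transsulfuration enzymes, Cth was higher in Pkd1-/- (0.38) and lower in Pkd2-/- cells (-1.41), and Cbs was lower in Pkd2-/- cells (-1.14). Of 12 genes supplying 2-oxoglutarate, the cosubstrate of TET enzymes, 2 were higher and 1 lower in Pkd1-/- cells, and 5 higher and 3 lower in Pkd2-/- cells. Idh1 was lower in Pkd2-/- cells (-0.77, limma adjusted p = 1.27e-09) and Glud1 higher (0.48), while Idh3b was higher in both (0.21 and 0.37) and Idh2 lower in Pkd1-/- cells (-0.19, limma adjusted p = 0.041).

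Uhrf1, Dnmt1, Hells and Pcna are transcribed mainly in dividing cells, so 24 genes of S phase and division were measured beside them. In Pkd1-/- cells 13 were higher and 1 lower (median 0.14), and in Pkd2-/- cells 4 were higher and 6 lower (median -0.05). Mki67, the proliferation marker, was higher in both (0.62 and 0.69, limma adjusted p = 0.000175 and 3.14e-05), as Dnmt1 was. Gins2, a replication fork subunit, was lower in Pkd2-/- cells (-0.56), as Uhrf1 was, with -0.15 in Pkd1-/- cells (limma adjusted p = 0.0793). Cyclin E1 (Ccne1), which starts S phase, was higher in Pkd1-/- cells (0.45), and the replicative helicase subunit Mcm2 passed in neither. Between the mutants 13 of the 24 were lower and 1 higher in Pkd2-/- than in Pkd1-/- cells (median -0.17), next to -0.42 for Uhrf1 and -0.04 for Dnmt1. The part of cell division in the Dnmt1 and Uhrf1 differences was not tested.

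**Figure D5:**
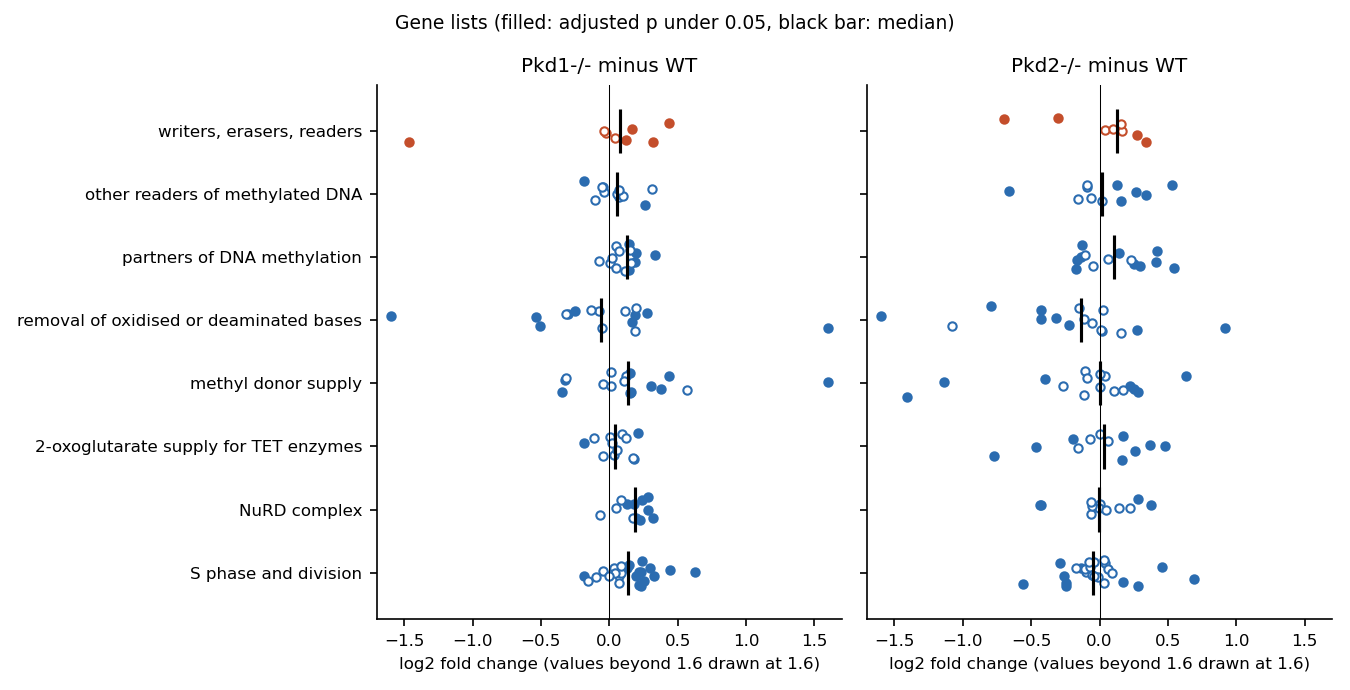
Log2 fold change against WT (x axis) of each tested gene in 8 lists (y axis), for Pkd1-/- (left) and Pkd2-/- cells (right). Filled circles passed an adjusted p of 0.05 and black bars are list medians, which for S phase and division are 0.14 and -0.05 and for the NuRD complex 0.19 and 0.00. Values beyond 1.6 are drawn at 1.6 in either direction.

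Germline genes that DNA methylation is known to silence in somatic cells were mostly near the limit of detection. Of 18 such genes, 8 were at 0 in all 12 libraries and 12 never exceeded 3 normalized counts. Only Brdt, a testis bromodomain gene, had counts in all 12 libraries, from 13 to 46 normalized counts. Its means were 25, 39.3 and 32.3 in WT, Pkd1-/- and Pkd2-/- cells, with no call. The list summed to 21 to 52 normalized counts in WT, 30 to 53 in Pkd1-/- and 55 to 70 in Pkd2-/- libraries. Of the 6 tested, Sycp3 and Stag3 were lower in Pkd1-/- cells, and Sycp3 and Tdrd1 were higher and Stag3 lower in Pkd2-/- cells. Sycp3 had 2 to 10 normalized counts in WT, 0 to 2 in Pkd1-/- and 13 to 18 in Pkd2-/- libraries. Tdrd1 had 0 to 5, 0 to 7 and 7 to 8 in the same order. The Pkd2-/- values of both lay above the detection limit. Stag3 had 0 to 10 in WT and 0 in all mutant libraries. All had means of at most 20 normalized counts and were named after their values were seen.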

How the data were processed

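In 12 libraries, RNA was sequenced by the authors, whose tools were Trim Galore for trimming, HISAT2 for alignment to GRCm38, HTSeq for counts of each Ensembl gene and DESeq2 for size factors. What they deposited, used here as a score, are normalized counts rounded to whole numbers, so no model of read counts was used. The reads behind them were estimated from which whole numbers occur. Positions and exon lengths came from GENCODE M21, which held 47223 identifiers and not 419. A strand setting for counting is not given in the sources used here. Antisense exons share 133 bases with Dnmt3a, 67 with Dnmt3l and 43 with Tet2, and those genes averaged at most 0.5 normalized counts.

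Differences were tested with limma 3.58.1 in R 4.3.3 (lmFit, eBayes with a variance trend) on log2(normalized count + 1), in 1 model of 12 libraries, for 18552 genes with a mean of at least 1. P-values were two-sided and Benjamini-Hochberg adjusted within each comparison. Members and lists were chosen with earlier results of these data known. Besides members and fixed genes, the 2 genes per list and mutant with the largest called change and a mean of at least 10 were named. Some further genes were named after their values were seen. One of the fixed genes is not reported here. Alternatives were another pseudocount, filter, scaling or variance model, the 2 compared genotypes only, a replicate block and left-out libraries. Removing the length trend and leaving out all libraries numbered 4 were chosen after seeing the data.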

Additional observations from a re-analysis of the deposited data

Results flagged for a closer look

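Between the mutants, the difference from WT was not the same for 3 members, by limma's test of Pkd2-/- against Pkd1-/- (Benjamini-Hochberg adjusted). The effect in Pkd2-/- minus that in Pkd1-/- was 0.76 on the log2 scale for Tet1, -0.42 for Uhrf1, whose mutants lay on opposite sides of WT, and -0.12 for Mbd2. In 27 groups of 4 libraries, Dnmt3l had a single library apart from the others in WT, with a value of 1 normalized count, and in Pkd2-/- cells, with a value of 1, where the other 3 libraries were at 0. Chance sets about 1 in 20 groups of continuous values apart in this way. With the other libraries at 0, any single count meets the rule, so that share does not apply here. A value of 1 count is under the detection limit.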

How the results depend on the processing

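The calls for Dnmt1 in both mutants, Uhrf1 in Pkd2-/-, and Tet1 and Dnmt3b in Pkd1-/- cells held under all 10 alternatives and with each of the 8 libraries left out. The alternative values were fold changes of members and counts of members called. In 494 of them a fold change kept its direction and side of the threshold, or a count changed little. Of the fold changes, 27 lost the threshold, 4 gained it and 14 changed sign, none of the latter past the threshold. Only 1 count moved further, that of members called in Pkd1-/- cells without Pkd1-/- replicate 3. The cause was not tested. In Pkd1-/- against WT, Uhrf1 did not pass with no filter, a replicate block or no variance trend (0.12 each) or without the libraries numbered 4 (0.11). In Pkd2-/- against WT, Tet1 did not pass without those libraries (-0.68), Dnmt3a passed with the replicate block (0.16), Mbd2 turned to -0.011 with upper quartile scaling, and removal of the length trend turned Dnmt3a to -0.059, Tet2 to -0.13 and Tet3 to -0.065. Between the mutants, it turned Dnmt3a to -0.10, Tet2 to -0.10 and Tet3 to -0.023. There Tet3 passed with the block (0.20), and Mbd2 did not pass with no filter or no variance trend (-0.12 each) or with the length trend removed (-0.10).

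With single libraries left out, members called ranged from 3 to 4 in Pkd1-/- (3 without Pkd1-/- replicate 3), 3 to 4 in Pkd2-/- and 2 to 3 between the mutants. Log2 changes in Pkd1-/- ranged from -0.020 to 0.096 for Dnmt3a, -0.13 to 0.082 for Tet2, -0.097 to 0.034 for Tet3, 0.10 to 0.15 for Uhrf1 and 0.14 to 0.20 for Mbd2. In Pkd2-/- they ranged from 0.27 to 0.40 for Dnmt3b, -0.80 to -0.56 for Tet1, -0.0076 to 0.15 for Tet2, 0.059 to 0.23 for Tet3, 0.099 to 0.20 for Dnmt3a and 0.026 to 0.072 for Mbd2. Between the mutants they ranged from 0.10 to 0.26 for Tet3 and -0.15 to -0.10 for Mbd2.

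Over all settings in Pkd2-/- cells, 2 to 5 of the other genes from reader families were higher and 1 to 3 lower. Of the partners 5 to 7 were higher and 1 to 5 lower, and of the genes of S phase and division 3 to 5 were higher and 6 to 10 lower. In Pkd1-/- cells 3 to 6 partners, 6 to 9 NuRD genes and 10 to 13 genes of S phase and division were higher.

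Same-numbered libraries did not pair throughout, since their deviations correlated between -0.16 and 0.39, so the replicate block is only an alternative. The libraries numbered 4 did go together, with 0.39 for WT and Pkd2-/-, 0.32 for Pkd1-/- and Pkd2-/- and 0.19 for WT and Pkd1-/-. Each of these was the highest value of that library with the other genotype. Not every library correlated best with its own number.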
